A study of Mus musculus with 2 samples.

Results

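The enzymes that cut and rebuild the acyl chains of phospholipids were examined in gastrocnemius (GAS) muscle that lacks *Gde5* (*Gpcpd1*). Members were all non-control probes, on both arrays, whose gene carries a name of the phospholipase A2, patatin-like phospholipase, lysophospholipase, phospholipase B1 or lysophospholipid acyltransferase families, older and current aliases included. This gave 77 of 41173 probes, for 46 genes. Of these, 67 probes carry such a name on the array, and 10 probes of 6 genes were reached through an alias, among them *Mboat7* (listed as Leng4), *Gpat3* (A230097K15Rik) and *Plaat3* (Hrasls3). The receptor *Pla2r1* was not counted as a member, since it is no enzyme of these families.

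RNA came from GAS muscle of male mice aged 15 weeks on a normal diet, of 2 genotypes. *Gde5* skKO mice are HSA-Cre;*Gde5* flox/flox, in which Cre runs from the promoter of human skeletal actin and removes a floxed exon in muscle fibres, so other cells of the muscle keep the gene. The other genotype is labelled wild-type (WT), and for some experiments of the study the methods name *Gde5* flox/flox littermates. On array 1 the *Gde5* skKO RNA was labelled with Cy5 and the WT RNA with Cy3, and array 2 had the opposite dyes. The labels name 5 mice of each genotype, but not whether RNA was pooled, whether both arrays held the same RNA, or whether the mice had received glucose or were fasted. Each value below is therefore a comparison of 2 hybridizations, and any spread is between arrays and not between mice. In whole muscle RNA, fewer cells of a type and less RNA per cell cannot be told apart.

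Phospholipases A2 release the fatty acid at the middle position of a phospholipid and leave a lysophospholipid. Lysophospholipases remove the remaining chain, and from phosphatidylcholine this leaves glycerophosphocholine, the substrate that the GDE5 enzyme splits into choline and glycerol 3-phosphate. Lysophospholipid acyltransferases work the other way and put an acyl chain from acyl-CoA back onto the lysophospholipid, in the deacylation and reacylation cycle that sets the fatty acid makeup of membranes. Related acyltransferases build lysophosphatidate and phosphatidate from glycerol 3-phosphate.

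The deleted gene was checked first. Of the 4 *Gde5* probes (listed as Prei4), 3 had log2 ratios of *Gde5* skKO over WT between -2.59 and -3.07 on array 1 and between -3.24 and -3.29 on array 2. The remaining probe had -0.05 and -0.47. Of the 4 probes, then, 3 were low in *Gde5* skKO muscle on both arrays and 1 was not. On the minus strand of chromosome 2 of mm8, the assembly of the array annotation, the 3 low probes lie between 132221088 and 132225598. The remaining probe lies upstream of them, from 132256048 to 132256107. Its signals were 6917 in WT and 6679 in *Gde5* skKO on array 1, and 7610 and 5512 on array 2.

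Every probe on an array was given a ratio, a p-value from the error model of the software within that array, and a mark that says whether each channel lies well above background. A probe was tested when at least 1 channel was well above background on both arrays, and it was called when the p-value was under 0.05 on both arrays with the same direction of the turned ratios. Among 19098 probes tested, 1.49% were called higher and 1.58% lower in *Gde5* skKO muscle. Of the 77 member probes, 50 passed the filter, for 32 genes, and of those 50 the calls were 2 higher, *Pla2g4b* and *Lyplal1*, and 1 lower, *Pla2g2d*. Read against these shares, the members' counts lie near the background, and *Lyplal1* passed the filter through its *Gde5* skKO channel alone. Without turning either array, 322 of all probes tested passed the same rule and no member did.

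For *Pla2g2d*, a secreted phospholipase A2 known from dendritic cells and lymphoid tissue, the processed signal on array 1 was 121 in WT and 59.7 in *Gde5* skKO. On array 2 the signals were 222 and 142. The *Gde5* skKO channel was thus the lower on both arrays, at log2 ratios of -1.02 ± 0.32 and -0.64 ± 0.23 (error of the software for that array) with p-values of 0.00163 and 0.00584. The probe lies on chromosome 4 from 138054028 to 138054087 of mm8, the assembly of the array annotation.

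Markers of macrophages and dendritic cells, a cell source of *Pla2g2d*, were read beside it. Of 9 listed genes, 6 were tested with 7 probes and no probe was called. On both arrays 3 were lower (42.9%, against 24.5% of all probes tested). Their summed signal was 11490 in WT and 10710 in *Gde5* skKO on array 1, and 11760 and 9602 on array 2. Most of this sum comes from 1 probe of *Lyz2* and from *Cd74*, with 7614 and 2793 in WT on array 1. Their mean log2 ratios were -0.24 and -0.12. *Cd68* and *Itgax* did not pass the filter, and *Itgam* was not well above background in any channel. The part of these cells in the ratio of *Pla2g2d* was not tested. With normexp background correction and loess in limma, the mean log2 ratio of *Pla2g2d* was -0.19 in place of -0.83, and limma's adjusted p was 0.737.

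*Pla2g4b* codes for a cytosolic phospholipase A2, and its 3 probes did not read alike. The first, on chromosome 2 of mm8 from 119723675 to 119723734, had 103 in WT and 143 in *Gde5* skKO on array 1, and 105 and 173 on array 2. These are log2 ratios of 0.47 ± 0.24 and 0.72 ± 0.25, with p-values of 0.0474 and 0.00362, so array 1 lies just inside the threshold. The second probe, 9566 bases further on, had log2 ratios of -0.31 and 0.38, and the third had -0.07 and 0.08. Both therefore changed sign with the dye swap, and neither was called. RefSeq gives *Pla2g4b* a length of 9601 bases. On mm8 the 3 probes, from 119723675 to the end of the third at 119733375, span slightly more. RefSeq also lists *Jmjd7*, the neighbour of *Pla2g4b*, and a readthrough transcript over both genes. The first probe is counted under *Pla2g4b* by its name on the array, and which of these transcripts it reads was not tested.

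*Lyplal1* codes for a serine hydrolase related to the acyl-protein thioesterases. Its probe, on chromosome 1 of mm8 from 187789222 to 187789281, had 15.5 in WT and 38.7 in *Gde5* skKO on array 1, and 22.2 and 60.7 on array 2. The *Gde5* skKO channel was well above background on both arrays and the WT channel on neither, so the WT value is only a bound. The probe passed the filter through its *Gde5* skKO channel alone, which favours a higher call. From channel values normalized with loess and Aquantile, the mean was 6.14 in *Gde5* skKO and 5.99 in WT on the log2 scale. The WT level was set on each array to the probe's own signal or to the lowest signal that counts as well above background, whichever was higher. Against it *Lyplal1* was at least 1.11-fold higher in *Gde5* skKO, with an adjusted p of 0.874 in limma. The software's own log2 ratios of 1.32 and 1.45, with p-values of 0.0404 and 0.0105, are far larger. They come from signals without that offset, so the 2 scales are not alike.

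**Figure D1:**
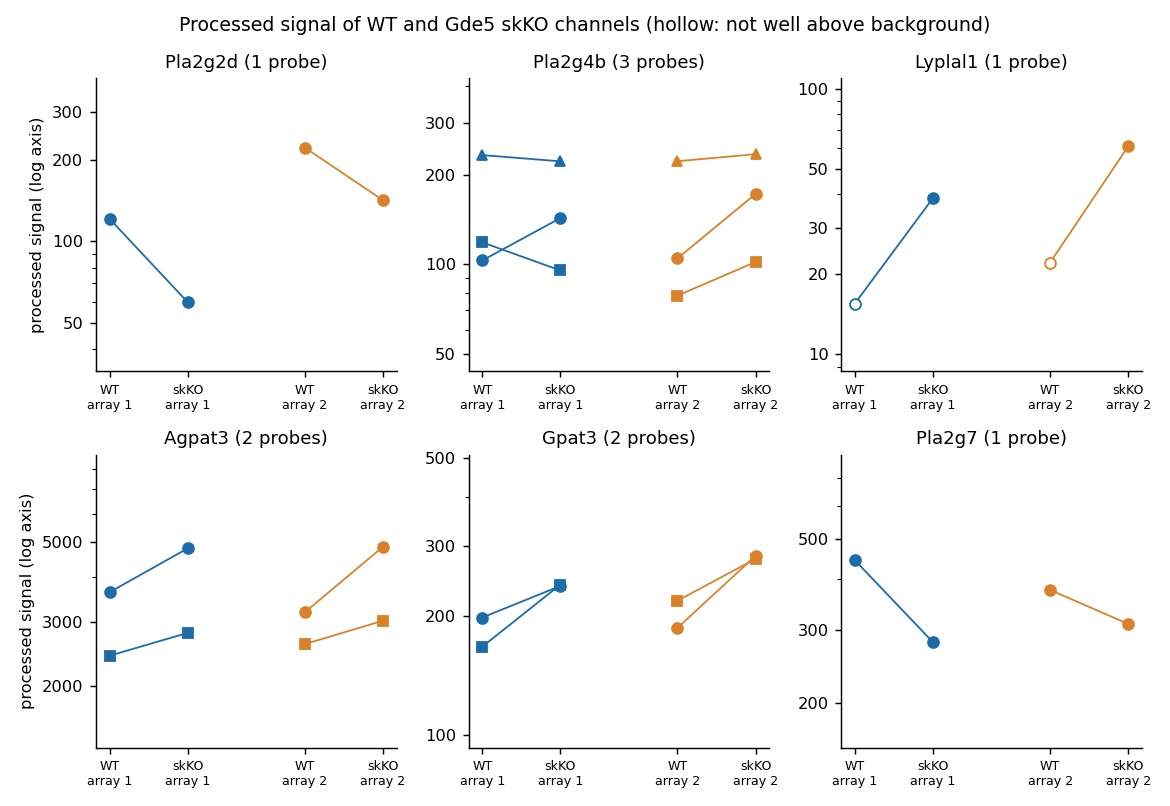
Processed signal (log axis, one scale per panel) of the WT and *Gde5* skKO channels on array 1 (blue) and array 2 (orange), with lines joining the channels of 1 probe and a different marker for each probe of a gene. Hollow points were not well above background. The *Pla2g2d* signal was 121 in WT and 59.7 in *Gde5* skKO on array 1 and 222 and 142 on array 2, 1 of 3 *Pla2g4b* probes was higher on both arrays, and both WT points of *Lyplal1* are hollow.

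Promoters of called members are shown for *Pla2g2d* and *Lyplal1*, which RefSeq gives on GRCm38.p6, a later assembly than that of the array, from 250 bases before to 50 after the start of each gene. They are the start regions of the lower member and of 1 of the higher members, and RefSeq's table gives none for *Pla2g4b*. Capitals mark the letters GGGCGG (GC box) and CCAAT, searched together with TATAAA on both strands.
*Pla2g2d*, chr4:138775485-138775784, plus strand: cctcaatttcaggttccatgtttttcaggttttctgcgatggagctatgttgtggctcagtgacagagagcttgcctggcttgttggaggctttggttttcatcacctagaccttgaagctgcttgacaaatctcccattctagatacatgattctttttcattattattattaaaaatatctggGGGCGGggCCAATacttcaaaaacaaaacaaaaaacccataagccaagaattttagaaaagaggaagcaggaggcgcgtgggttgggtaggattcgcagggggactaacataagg
*Lyplal1*, chr1:186117261-186117560, minus strand: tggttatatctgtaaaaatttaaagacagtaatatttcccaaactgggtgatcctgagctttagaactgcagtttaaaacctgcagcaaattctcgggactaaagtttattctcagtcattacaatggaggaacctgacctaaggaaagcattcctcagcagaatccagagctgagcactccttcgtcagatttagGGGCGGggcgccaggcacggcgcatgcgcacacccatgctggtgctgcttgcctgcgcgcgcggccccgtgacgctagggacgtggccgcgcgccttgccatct
The *Pla2g2d* window holds 1 GC box and 1 CCAAT, 5 CG dinucleotides and 43% G and C. The *Lyplal1* window holds 1 GC box, 17 CG dinucleotides and 52.3% G and C. Neither holds TATAAA. Over 32851 RefSeq promoters of this length, 35.7% hold GGGCGG, 37.4% hold CCAAT and 13.6% hold TATAAA. These letters are a description of the windows and no binding was measured.

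Of the secreted phospholipases A2, 4 of 13 probes were tested, for 3 of 11 genes. *Pla2g12a*, an atypical secreted form, was measured with 2 probes, at log2 ratios of 0.16 and 0.11 for the first and 0.16 and 0.39 for the second, none past the threshold. *Pla2g5*, a secreted form of heart and macrophages, had -0.58 on array 1 with a p-value of 0.0146 and -0.01 on array 2, so only array 1 was past the threshold. The other 8 genes, *Pla2g1b*, *Pla2g2a*, *Pla2g2c*, *Pla2g2e*, *Pla2g2f*, *Pla2g3*, *Pla2g10* and *Pla2g12b*, did not pass the filter on dim probes, and no change could be read for them. In RefSeq *Pla2g2a* is a pseudogene.

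Among the cytosolic phospholipases A2, most of which act on membranes in response to calcium, 4 of 10 probes were tested, for *Pla2g4b* and *Pla2g4e*. *Pla2g4e*, an enzyme that also makes N-acylated phosphatidylethanolamine, had a signal of 293 in WT and 336 in *Gde5* skKO on array 1, and of 288 and 455 on array 2. Its log2 ratios were 0.20 and 0.66, with p-values of 0.346 and 0.00243, so the ratio was positive on both arrays but past the threshold on 1. Both probes of *Pla2g4a*, the form that releases arachidonic acid, failed the filter, as did those of *Pla2g4c* and *Pla2g4f*.

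The patatin-like and calcium-independent enzymes were better covered, with 8 of 11 probes tested, and none was called. For *Pnpla2*, the triglyceride lipase ATGL, the first probe had 3382 in WT and 3865 in *Gde5* skKO on array 1, and 3829 and 4507 on array 2. Its log2 ratios of 0.19 and 0.24 were beside 0.24 and 0.43 for the other probe, whose array 2 value had a p-value of 0.041. All 4 ratios of *Pnpla2* were thus positive, and 1 of the 4 passed the threshold. *Pnpla8*, a calcium-independent phospholipase A2 of mitochondria and peroxisomes, gave 6 negative ratios over 3 probes, from -0.05 to -0.10 on array 1 and from -0.19 to -0.54 on array 2. Only the probe with 5734 in WT and 4238 in *Gde5* skKO on array 2 passed there, at -0.44 and a p-value of 0.036, against 5650 and 5361 on array 1. *Pla2g6*, the group VI calcium-independent enzyme, had log2 ratios of 0.12 and 0.38, *Pnpla7* had 0.09 and 0.27, and *Pnpla6* had -0.17 and -0.08. *Pnpla3* and *Pnpla5* did not pass the filter.

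*Pla2g7*, the secreted platelet-activating factor acetylhydrolase of macrophages, had 444 in WT and 281 in *Gde5* skKO on array 1, and 376 and 311 on array 2. The *Gde5* skKO channel was lower on both arrays, at log2 ratios of -0.66 and -0.27, with p-values of 0.00265 and 0.203, so array 2 was not past the threshold. *Plaat3*, a phospholipase of adipose tissue, had 0.37 and 0.55 for 1 probe and -0.02 and -0.00 for the other, so its probes did not read alike. The 1 tested probe of 4 for *Plb1*, phospholipase B1, went from 1.04 on array 1 to -0.54 on array 2, the widest change of direction among the hydrolase probes tested. *Pla2g15*, the lysosomal phospholipase A2, had 0.11 and 0.32.

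The lysophospholipases *Lypla1* and *Lypla2*, which are also acyl-protein thioesterases, lay close to 0. *Lypla2* had 8406 in WT and 8527 in *Gde5* skKO on array 1, and 9275 and 10110 on array 2, with log2 ratios of 0.02 and 0.12. The 3 probes of *Lypla1* had ratios from -0.25 to 0.11 on array 1 and from -0.16 to -0.08 on array 2. None of these was past the threshold on either array.

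**Figure D2:**
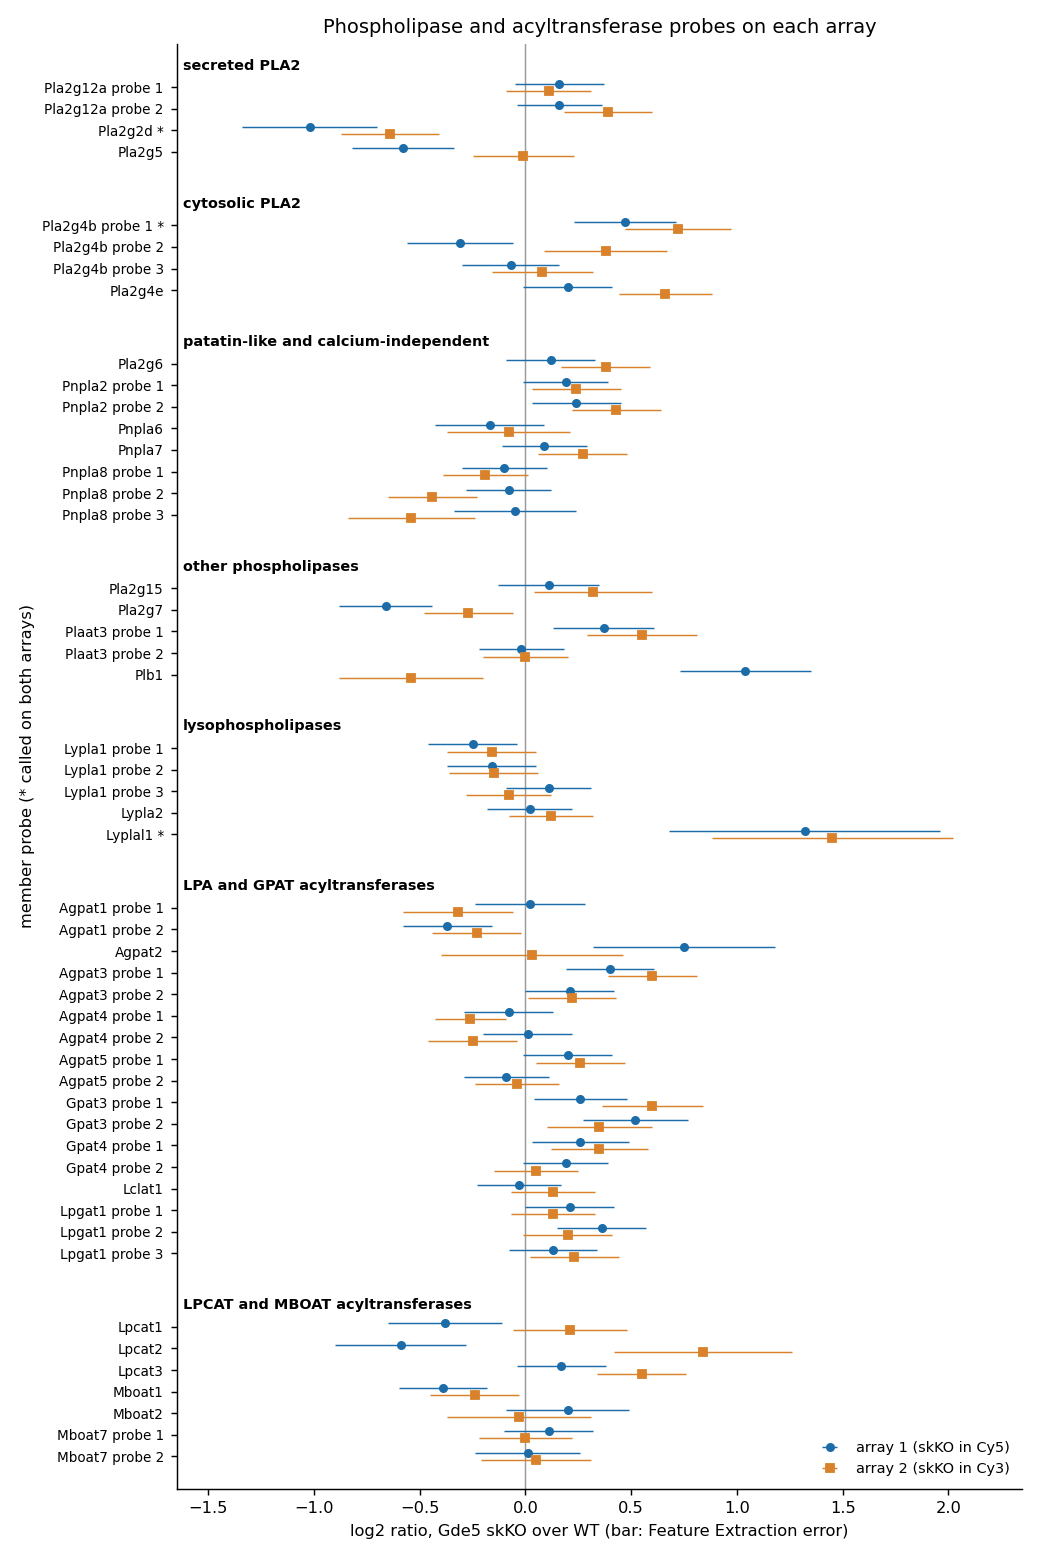
Log2 ratio of *Gde5* skKO over WT of the 50 member probes tested, grouped by family, on array 1 (blue circles) and array 2 (orange squares), with the error of the software as bars and an asterisk for a called probe. Most probes lie within 0.5 of 0 on both arrays. *Pla2g2d* lies at -1.02 and -0.64, and the points of *Lyplal1* rest on a WT channel that was not well above background on either array.

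Acyltransferases of lysophosphatidate and glycerol 3-phosphate gave 17 tested probes of 20, for all 9 genes, and none was called. Their median log2 ratio was 0.20 on array 1 and 0.13 on array 2, against 0.02 and 0.01 over all probes tested. Of the 17 probes, 11 were higher on both arrays (64.7%, against 29.3% of all probes tested) and 3 were lower on both (17.6%, against 24.5%). The probes share genes and arrays, so this is a description and was given no test. With normexp and loess the median of the family was 0.10.

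*Agpat3*, which puts a second acyl chain on lysophosphatidate and other lysophospholipids, came nearest to a call. Its first probe had 3630 in WT and 4804 in *Gde5* skKO on array 1, and 3194 and 4853 on array 2. The log2 ratios were 0.40 and 0.60, and the p-values were 0.0512 and 0.00432, so array 1 lies just outside the threshold. The second probe had 2419 and 2799 on array 1, and 2606 and 3025 on array 2, or log2 ratios of 0.21 and 0.22. All 4 ratios of *Agpat3* were positive, yet on normexp and loess ratios the first probe had 0.05 on array 1 and 0.63 on array 2.

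*Gpat3*, which starts glycerolipid synthesis from glycerol 3-phosphate, also had 4 positive ratios. They were 0.26 and 0.60 for the first probe and 0.52 and 0.35 for the second, each probe past the threshold on 1 array. For *Gpat4*, its close relative in the endoplasmic reticulum, the ratios were 0.26 and 0.35 for 1 probe and 0.19 and 0.05 for the other. The 3 probes of *Lpgat1*, an acyltransferase of lysophosphatidylglycerol and other lysophospholipids, had ratios from 0.13 to 0.36 on array 1 and from 0.13 to 0.23 on array 2. *Agpat1* was the opposite case, with 0.02 and -0.32 for 1 probe and -0.37 and -0.23 for the other. *Agpat4* had values from -0.26 to 0.01. *Agpat2*, the form whose loss causes lipodystrophy, had 0.75 and 0.03 on its 1 tested probe of 2, and *Lclat1*, an acyltransferase of cardiolipin remodelling, had -0.03 and 0.13. The probes of *Agpat5* had 0.20 and 0.26 against -0.09 and -0.04.

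Of the LPCAT and MBOAT acyltransferases, which act mainly on lysophosphatidylcholine and other lysophospholipids, 7 of 10 probes were tested, for 6 of 7 genes, and none was called. *Lpcat3* (listed as Mboat5), which puts polyunsaturated chains onto phosphatidylcholine, had 517 in WT and 582 in *Gde5* skKO on array 1, and 522 and 762 on array 2. The log2 ratios were 0.17 and 0.55, with p-values of 0.41 and 0.00989, so both were positive and array 2 alone was past the threshold. *Mboat7*, the acyltransferase of lysophosphatidylinositol with a preference for arachidonate, stayed between 0.00 and 0.11 over 2 probes and both arrays. *Lpcat1* (Aytl2), known for the surfactant lipids of the lung, had -0.38 and 0.21. *Lpcat2* (Aytl1), which also makes platelet-activating factor, had -0.59 and 0.84, and its signals were not well above background in every channel. *Mboat1* had -0.39 and -0.24, and *Mboat2* had 0.20 and -0.03. *Lpcat2b* was the 1 gene of this family that did not pass the filter. The direction of *Lpcat1*, *Lpcat2* and *Mboat2* thus depended on the array.

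Taken over both arrays, 4 of 50 member probes (8%) had a mean log2 ratio of at least 0.5 in size, against 6.48% of all probes tested. The median over the 50 was 0.11 on array 1 and 0.12 on array 2, against 0.02 and 0.01 over all probes tested. Of the 50, 26 were higher on both arrays (52%, against 29.3% of all probes tested). On both arrays 14 were lower (28%, against 24.5%). Opposite signs were seen for 10 of the 50, against 8830 of the 19098 probes tested. These counts are a description and were given no test. The arrays differed by a median of 0.18 on the log2 scale for members and 0.23 for all probes tested, close to the median error of 0.21 per array. Among 14 member genes with more than 1 tested probe, the mean ratios of all probes had the same sign in 11, the exceptions being *Agpat5*, *Lypla1* and *Plaat3*. Probes well above background in both channels were called with ratios down to 0.40 in size on an array.

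**Figure D3:**
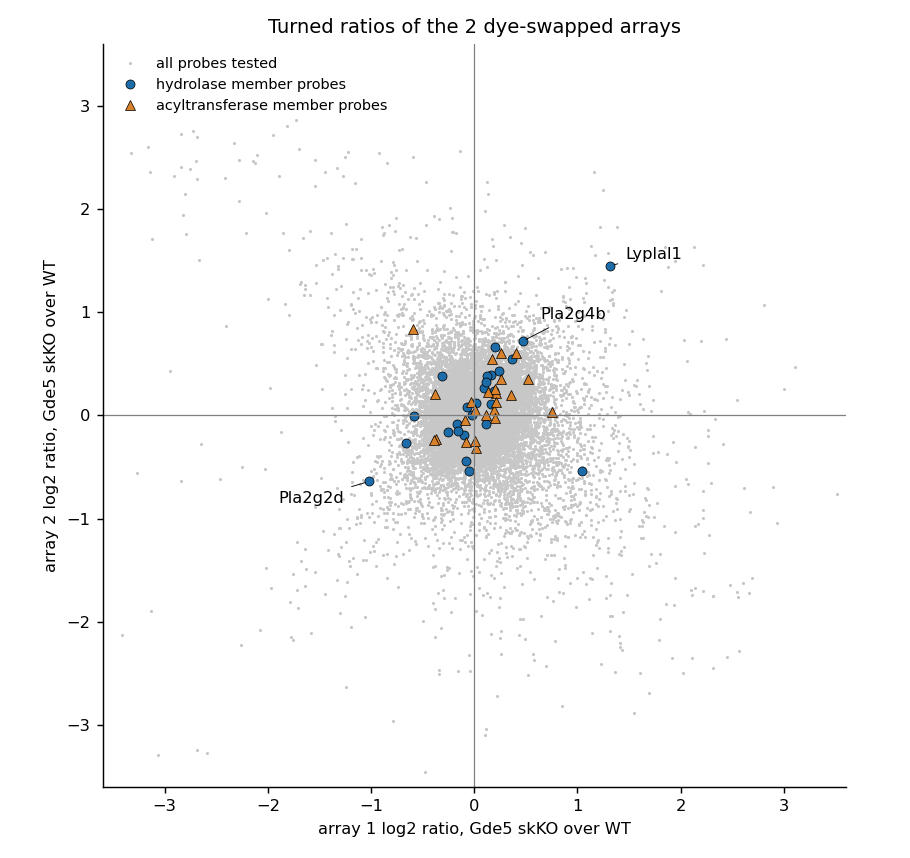
Log2 ratio of *Gde5* skKO over WT on array 1 (x) and array 2 (y) for all probes tested (grey, 1 probe outside the range not drawn), with 26 hydrolase member probes as blue circles and 24 acyltransferase member probes as orange triangles. The 3 called members are named. Most members lie in the centre of the grey points, and *Plb1*, at 1.04 and -0.54, and *Lpcat2*, at -0.59 and 0.84, moved opposite ways.

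Another criterion named other members. On ratios from normexp and loess, the moderated test of limma put 4.07% of all probes tested above 0 and 4.02% below it at an unadjusted p under 0.05. The members past it were 5 higher, a probe each of *Agpat3*, *Lpcat3*, *Lpgat1*, *Pla2g4b* and *Pla2g4e*, and 1 lower, *Pla2g7*. After Benjamini-Hochberg adjustment 40 probes higher and 75 lower were left of the 19098 tested. With so few left, the absence of members among them says little about the members. The lowest adjusted p among the 6 was 0.501, of *Pla2g4b*. That probe, counted under *Pla2g4b* by its name on the array, had a mean log2 ratio of 0.60, and of 0.26 after normexp and loess. It was the one member probe named by both criteria, and the other *Pla2g4b* probes were named by neither. Requiring every channel of both arrays to be well above background left 16950 probes, of which 1.57% were called higher and 1.66% lower. Of the 47 member probes among them, 1 was called higher and 1 lower, since *Lyplal1* leaves under that filter.

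**Figure D4:**
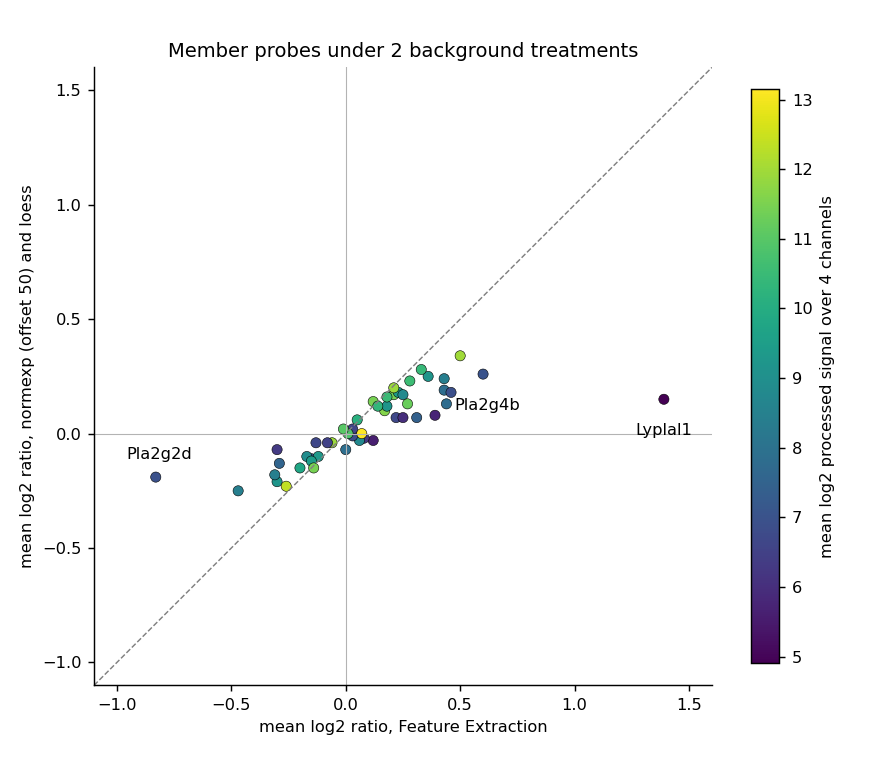
Mean log2 ratio over both arrays of the 50 member probes tested, as given by Feature Extraction (x) and after normexp with an offset of 50 and loess (y), coloured by mean log2 processed signal, with the line of equal values dashed. *Lyplal1*, at 1.39 against 0.15, and *Pla2g2d*, at -0.83 against -0.19, lie far from that line.

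The enzymes around the cycle were read from 4 lists with 66 genes, all on the arrays, of which 45 were tested with 69 probes. By the same rule, 2 probes were called higher and 5 lower of the 69, against 1.49% higher and 1.58% lower of all probes tested. Earlier results of these arrays were known when the lists were written, so this comparison is a description and no test. Of the 5 lower probes, 4 belong to acyl-CoA synthetases, which activate fatty acids to the acyl-CoA that the acyltransferases use. That list, with desaturases and elongases, had 14 tested probes, and its median log2 ratio was -0.23 on array 1 and -0.36 on array 2.

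*Acsl4*, which prefers arachidonate, fell on both of its probes. One had 5739 in WT and 3630 in *Gde5* skKO on array 1, and 5964 and 3360 on array 2, or log2 ratios of -0.66 and -0.83. With normexp and loess this probe had a mean log2 ratio of -0.72, and limma's adjusted p was 0.0223. The other probe had -0.69 and -0.45, and -0.36 with normexp and loess. *Acsl3*, of lipid droplets and endoplasmic reticulum, fell from 1141 to 594 on array 1 and from 1146 to 744 on array 2, at log2 ratios of -0.94 and -0.62, with a limma adjusted p of 0.124. *Acsl6* was called lower with 1 of 3 tested probes, at -0.76 and -0.60, or -0.27 with normexp and loess. *Acsl1*, the main form for fatty acid oxidation in muscle, was called higher with 1 of 2 tested probes, at 0.45 and 0.43, and the other probe had 0.28 and 0.15.

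On the phosphatidate side, *Lpin1*, a phosphatase that makes diacylglycerol from phosphatidate, was called higher with 1 of 4 probes. That probe had 8090 in WT and 10930 in *Gde5* skKO on array 1, and 8475 and 13010 on array 2, or log2 ratios of 0.43 and 0.62. The other 3 probes were positive on both arrays, from 0.12 to 0.36. *Pafah1b1*, a subunit of the intracellular platelet-activating factor acetylhydrolase that also regulates dynein, was called lower with 1 of 2 probes, at -0.42 and -0.43. Its other probe went from -0.68 to 0.52. Of the 10 tested probes for lipid mediators and their receptors, none was called. The lists were written with earlier results of these arrays known.

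Adipocyte markers moved on the same arrays, and several members and list genes are also made by adipocytes, *Pnpla2*, *Plaat3*, *Agpat2*, *Acsl1* and *Lpin1* among them. The tested probes of these named genes had mean log2 ratios from -0.01, of *Plaat3*, to 0.53, of *Lpin1*. These genes are examples and were not chosen by a rule. On the acyl-CoA list, *Scd1* had log2 ratios of -0.22 and -1.91, with signals not well above background in every channel. Of 8 listed marker genes, 7 were tested with 10 probes, of which 6 were called lower and 1, *Cidea*, higher. *Adipoq* had -0.97 and -1.03, while *Lep* was not well above background in any channel. Their summed signal was 80070 in WT and 78120 in *Gde5* skKO on array 1, and 78770 and 77360 on array 2. Most of this sum comes from 2 probes of *Fabp4*, with 35640 and 34720 in WT on array 1 and mean log2 ratios of 0.05 and 0.01. The 6 probes called lower, of *Adipoq*, *Cfd*, *Retn*, *Plin1* and *Cidec*, had mean log2 ratios from -1.20 to -0.69. Markers of skeletal muscle itself were present, all 7 of 7 genes tested, and no probe of them was called. The part of adipocytes in the ratios above was not tested.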

How the data were processed

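Labelled RNA of WT and *Gde5* skKO GAS muscle was hybridized on 2 dye-swapped Agilent arrays, both on 1 slide and in 1 scan. Scans were read by the authors in Feature Extraction, version 9.5.3.1, which subtracts a fitted background surface, divides out a spatial trend of each channel and normalizes the dyes. The deposited files give the Cy5 over Cy3 ratio of each spot as log10 and a p-value from the error model. The deposited files also hold the intensity of each spot and of its local background, and the authors' series table repeats the log10 ratio. The number of arrays limits the precision.

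Log2 ratios were computed, with the sign of array 2 changed so that *Gde5* skKO stands over WT, and spots of the same probe were averaged, without control spots and outlier marks. Probes were named through RefSeq genes of GRCm38.p6, by accession for 64, by symbol for 11 and by synonym for 2 of the 77 member probes. Probe coordinates come from the array annotation, on mm8. *Pla2g4d*, *Pnpla1*, *Lpcat4* and *Mboat4* have no probe among those analysed here. Normexp with an offset of 50, loess, Aquantile and the moderated test were run in limma 3.58.1 under R 4.3.3. In that fit, 11 spots of array 1 whose local background was over 2 times their signal were left out. Other steps used pandas 2.3.3 and numpy 2.4.6 in Python 3.11.15, with scipy 1.17.1 for the t-test and matplotlib 3.10.9 for plots, and were tested on simulated data.

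Probes named by rule were those called, the 3 highest and 3 lowest mean ratios among members above background in both channels, the 5 brightest, those of *Agpat3*, *Lpcat3*, *Mboat7*, *Lpcat1*, *Pla2g4a*, *Pla2g6*, *Pnpla2*, *Pnpla8* and *Gde5*, and called genes of the 4 lists. Other probes were named after their values were seen. The members and lists were chosen with earlier results of these data known. Alternatives were other background corrections, the series table, thresholds, filters and tests, the brightest probe of each gene, and each array alone.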

Additional observations from a re-analysis of the deposited data

How the results depend on the processing

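Against 2 member probes higher and 1 lower, the counts were 0 higher and 1 lower at a Feature Extraction p under 0.01 (129 higher and 155 lower of all probes tested). They were 0 and 0 with that p adjusted by Benjamini-Hochberg within each array, where 62 and 88 of all probes remained called. They were 1 and 1 with both channels well above background, and 1 and 1 with the brightest probe of each gene (215 and 235 of 13601 probes). Limma's moderated test gave 5 and 1 at an unadjusted p under 0.05 (778 and 767 of all probes tested). After adjustment it gave 0 and 0 (40 and 75 of all probes tested). A t-test compared the 2 *Gde5* skKO with the 2 WT channel values and left out their pairing within arrays. The paper names Student's t-test for comparisons of 2 groups, but not for its arrays. It gave 3 and 1 at p under 0.05 (640 and 591 of all probes tested), and 0 and 0 after adjustment, as for all probes tested. The channels are not known to be independent replicates. Array 1 alone gave 4 higher and 3 lower (1505 and 1005 of 19098 probes tested), and array 2 alone gave 9 higher and 2 lower (1369 and 1315). Normexp or no background correction with the Feature Extraction p kept, the series table, a further limit of 0.5 on the mean log2 ratio, and no filter on dim probes left 2 and 1. These settings could hardly change the counts. With the p kept, only the direction of the new ratio was checked, and the series table repeats the same ratios. The called members already exceed the limit of 0.5, and leaving out the filter can only add calls. The median of the members was 0.10, and it was 0.04 with normexp and loess, 0.04 without background correction, 0.08 without the filter, 0.07 with both channels above background, and from 0.11 to 0.12 on single arrays.

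Of 31 named probes, 15 moved by more than the spread between arrays with normexp and loess and 12 without background correction, and no called probe reversed. That spread rests on 2 values, so these counts also depend on how closely the arrays agreed. With normexp and loess a probe of *Acsl1* counted as moved, from 0.44 to 0.39. A probe of *Pnpla8* did not, from -0.30 to -0.07. For the first *Agpat3* probe, the spatial trend that Feature Extraction divides out differed between the channels by -0.35 on array 1 on the log2 scale, a correction the loess fit does not make. Other named probes had differences as large. The *Pla2g2d* probe had -0.40 on array 1 and 0.10 on array 2, and the first *Mboat7* probe had -0.48 and 0.30. Slide and scan could not be fitted as a block, since both arrays share them. Each ratio is already paired within its array, so no further block was fitted.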
